A study of Homo sapiens with 9 samples.

Results

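The genes described here are ATF4, the central transcription factor of the integrated stress response, and 9 of its downstream genes: DDIT3, DDIT4, TRIB3, ASNS, CHAC1, SESN2, PSAT1, PHGDH and PSPH. They were taken by symbol from the table of gene counts, and all 10 were found among its 19569 genes. Messenger RNA had been sequenced from Jurkat Clone E6-1, an established line of human leukaemic T lymphoblasts kept in RPMI 1640 medium with serum. The 9 libraries form 3 groups of 3: non-activated control cells (0 h), cells activated for 5 h and cells activated for 12 h. Activation used anti-CD3 (10 µg/mL) bound to the plate and soluble anti-CD28 (5 µg/mL). The groups share 1 clone of 1 cell line, so primary T cells and other clones are not represented, and no control cells cultured for 5 h or 12 h were included. Activation and time in culture therefore cannot be told apart in any comparison with 0 h.

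The integrated stress response is a shared relay for several kinds of cell stress. The kinases PERK, GCN2, PKR and HRI phosphorylate the initiation factor eIF2, which lowers general protein synthesis while translation of the ATF4 mRNA goes up through its upstream open reading frames. ATF4 protein then raises transcription of genes for amino-acid synthesis and transport, tRNA charging and redox supply, and, through DDIT3 (CHOP), of genes linked to cell death. In mice, activated T cells are known to need ATF4 for amino-acid uptake and synthesis. ATF4 is controlled largely at translation, so the mRNA values below do not report its protein, and the ribosome profiling of the same study was not analysed here.

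Total counts ran from 4222258 in 12 h replicate 1 to 9359187 in 12 h replicate 2. Levels are CPM, counts scaled to a library of 1000000 on sizes adjusted by TMM, and describe the relative abundance of each mRNA. The 10 genes together took 0.0587 to 0.0771% of the counts of a library. Of the T-cell markers, 7 were in the table and together reached 4389 to 5228 CPM over the 9 libraries. The 4 myeloid markers summed to 1.22 to 2.71 CPM, the 3 erythroid markers to at most 0.256 CPM, and the 3 fibroblast markers to 1.20 to 2.96 CPM. The 4 B-cell markers summed to 161.6 to 202.7 CPM at 0 h, 89.6 to 119 CPM at 5 h and 129.6 to 155 CPM at 12 h. Among them PAX5 was at 0 at 5 h and MS4A1 at 12 h; the part of these genes in the results below was not tested.

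The promoters are shown first, because ATF4 is known to act on some of these genes through the C/EBP-ATF response element. RefSeq promoter windows (GRCh38.p14, 250 bases before to 50 after the start) matched 9 of the 10 genes, all but PSPH. Both strands were searched for the core of the C/EBP-ATF response element (TGATGNAA), the cAMP response element core (TGACGTCA), the AP-1 site (TGANTCA) and the E-box (CACGTG). Each window is given 5′ to 3′ on the strand of its gene, and the capitals mark the match.
ASNS, C/EBP-ATF response element core: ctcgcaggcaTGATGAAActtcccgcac
CHAC1, C/EBP-ATF response element core on the other strand: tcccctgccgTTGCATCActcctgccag
DDIT3, AP-1 site: gcgcgcgcaTGACTCAcccacctcctcc
ATF4, E-box: gaggagacggtCACGTGgtcgcggcgga

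The ASNS window lies at chr7:97872459-97872486 on the minus strand, and its match starts 68 bases before the transcript start. The CHAC1 window lies at chr15:40953252-40953279 on the plus strand, with its match 209 to 202 bases before the start. The DDIT3 window is chr12:57520737-57520764 (minus strand, match from 241 bases before the start), and the ATF4 window is chr22:39520466-39520493 (plus strand, match from 82 bases before the start). The C/EBP-ATF core was thus found in 2 of 9 windows, against 3.67% of 27305 promoter windows and 1.67% of the 9784 windows that belong to tested genes. The AP-1 site was in 4.36% and the E-box in 10.2% of the windows of tested genes. No member window held the cAMP response element core, which 3.37% of those windows held. These matches are letters only, and windows without one say nothing about binding elsewhere in the gene.

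All 10 genes passed the filter on low counts and were tested together with the other genes, 12036 in all, by edgeR's quasi-likelihood test. A gene was called at an adjusted p under 0.05. At 5 h against 0 h, 4 members were higher (ATF4, DDIT3, TRIB3 and ASNS) and 4 were lower (DDIT4, PSAT1, PHGDH and PSPH). Of all genes tested, 24.9% were higher and 24.8% lower, 49.7% together. That all-gene split was 3001 higher and 2984 lower, and with upper-quartile normalization it was 2412 higher and 3622 lower. At 12 h against 0 h, 7 members were higher and 1, DDIT4, was lower, against 26.3% higher and 24.8% lower among all genes (51.1% together). At 12 h against 5 h, 5 members were higher and 1, DDIT3, was lower, against 18.1% and 18.0% of all genes (36.1% together). Without 5 h replicate 3 the 5 higher members became 3, and without 12 h replicate 1 or 5 h replicate 2 the lower member was lost. The median log2 fold change of the 10 genes was 0.09 at 5 h and 0.56 at 12 h against 0 h, where the medians of all genes tested were 0.0010 and -0.00071. The 2 comparisons with 0 h share the 0 h libraries. A bulk level cannot separate fewer expressing cells from less RNA per cell.

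**Figure D1:**
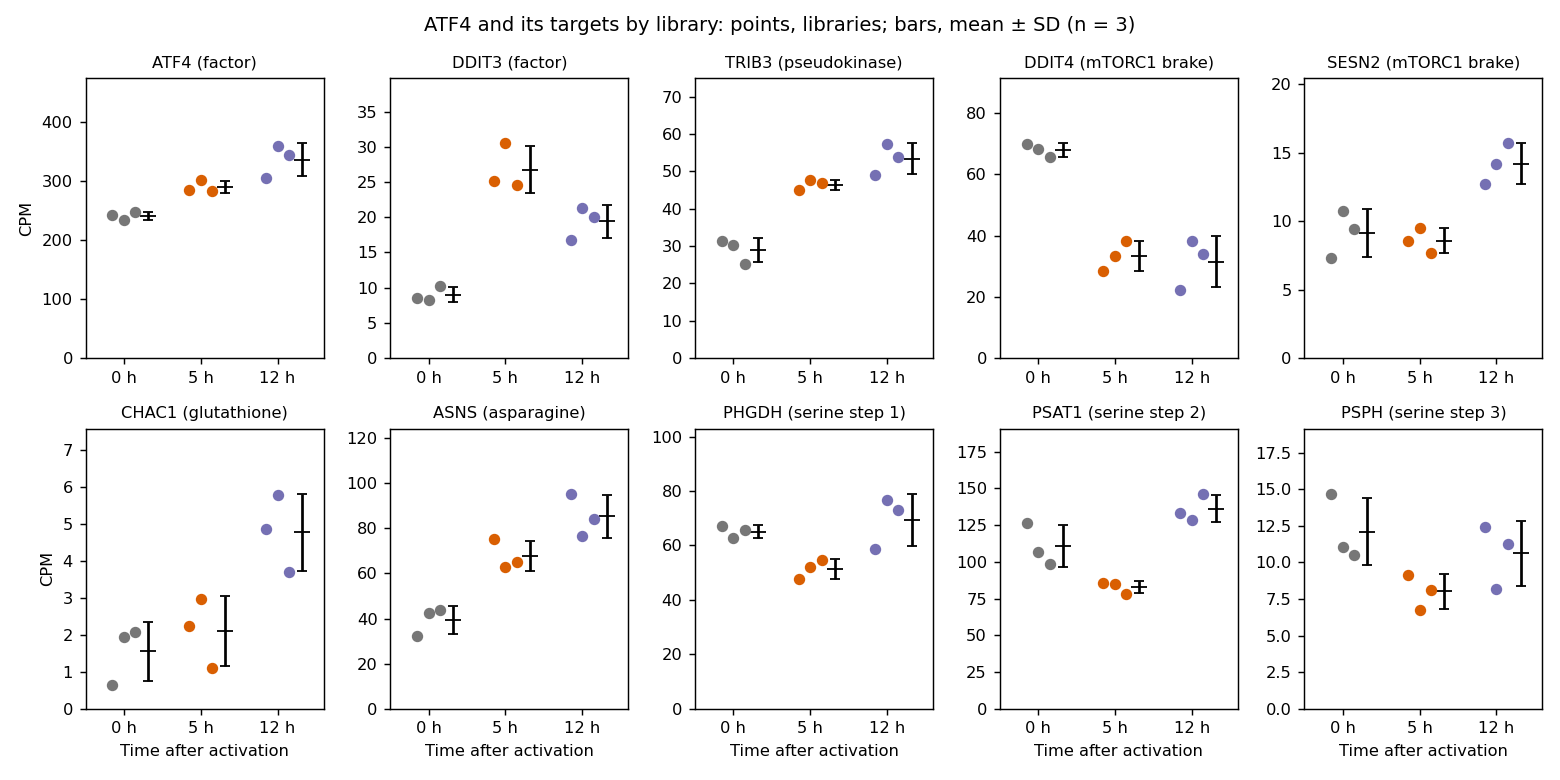
Level (CPM, linear axis from 0) of ATF4 and its 9 downstream genes in each of the 9 libraries, with time after activation as 3 evenly spaced groups; points are libraries and bars are mean ± SD (n = 3). ATF4, DDIT3, TRIB3 and ASNS lie above 0 h at both times, DDIT4 lies below it, and the 3 serine-synthesis genes are lowest at 5 h.

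ATF4 (ENSG00000128272, GRCh38 chromosome 22, 39519695 to 39522685, plus strand) encodes the bZIP factor itself. Its mRNA was at 242, 234 and 248 CPM in the 0 h libraries, 285, 302 and 283 CPM at 5 h, and 305, 359 and 344 CPM at 12 h. No 5 h or 12 h library fell within the 0 h range. At 5 h it was 1.20-fold higher (log2 0.26 ± 0.09 SE, edgeR adjusted p = 0.0144), and at 12 h 1.40-fold higher (log2 0.48 ± 0.09, adjusted p = 9.72e-05). The 5 h call was lost without 0 h replicate 2 (log2 0.24), without 5 h replicate 2 (0.23) and with upper-quartile normalization (0.18). The 12 h libraries all lay above the 5 h libraries, but the difference missed the threshold (log2 0.22, adjusted p = 0.0547). It passed without 0 h replicate 1 (log2 0.23), without 12 h replicate 1 (0.28), with upper-quartile normalization (0.24) and in DESeq2 (0.22).

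DDIT3 encodes CHOP, a bZIP partner of C/EBP proteins that ATF4 induces and that is linked to cell death in prolonged stress. It lies on chromosome 12, 57516588 to 57521737, on the minus strand. DDIT3 was at 8.57, 8.22 and 10.2 CPM at 0 h, 25.1, 30.5 and 24.6 CPM at 5 h, and 16.8, 21.4 and 19.99 CPM at 12 h. The 3 groups did not overlap, with 5 h highest and 0 h lowest. The rise was 2.96-fold at 5 h (log2 1.57 ± 0.15, edgeR adjusted p = 3.65e-08) and 2.17-fold at 12 h (log2 1.12 ± 0.16, adjusted p = 6.01e-06). The 12 h level was below the 5 h level (log2 -0.45 ± 0.14, adjusted p = 0.0178), a call lost without 12 h replicate 1 (log2 -0.38) or 5 h replicate 2 (-0.33).

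The exons of DDIT3 overlap neighbouring genes. On the opposite strand, 355 bases are shared with MARS1, the methionyl-tRNA synthetase gene, and 58 bases with MBD6. On the same strand, 105 bases are shared with ENSG00000285133, which had 1 count in 1 library of the 12 h group and 0 in the others. The use of strand in the counting is not given in the sources used here, so reads from those bases cannot be assigned with certainty. MARS1 averaged 185 ± 14.1 CPM at 0 h, 267 ± 5.71 CPM at 5 h and 266 ± 17.3 CPM at 12 h (SD, n = 3). It was 1.44-fold higher at 5 h and at 12 h against 0 h (log2 0.52 in both), and it did not pass at 12 h against 5 h (log2 -0.0028, adjusted p = 0.983). MBD6 did not pass in any comparison. The part of MARS1 reads in the DDIT3 values was not tested.

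TRIB3 encodes a pseudokinase induced by ATF4 and CHOP that binds ATF4 and dampens its activity (chromosome 20, 362835 to 397559, plus strand). It was at 31.5, 30.2 and 25.3 CPM at 0 h, 45.0, 47.6 and 46.8 CPM at 5 h, and 49.1, 57.4 and 53.9 CPM at 12 h. Every activated library lay above every 0 h library. TRIB3 was 1.61-fold higher at 5 h (log2 0.68 ± 0.11, edgeR adjusted p = 4.14e-05) and 1.86-fold higher at 12 h (log2 0.89 ± 0.11, adjusted p = 1.49e-06). The 12 h libraries lay above the 5 h libraries without passing the test (log2 0.21, adjusted p = 0.14).

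DDIT4 and SESN2 encode brakes on the growth kinase complex mTORC1 and differed from each other in direction. DDIT4 encodes REDD1, which acts through the TSC complex (chromosome 10, 72273920 to 72276036, plus strand). It was at 70.1, 68.5 and 65.6 CPM at 0 h, 28.4, 33.2 and 38.2 CPM at 5 h, and 22.2, 38.3 and 34.1 CPM at 12 h. All activated libraries lay below all 0 h libraries, and the 5 h and 12 h libraries overlapped. The level at 5 h was 0.489 of that at 0 h (log2 -1.03 ± 0.14, edgeR adjusted p = 4.47e-06), and at 12 h 0.476 of it (log2 -1.07 ± 0.14, adjusted p = 3.05e-06). At 12 h against 5 h the log2 fold change was -0.04 ± 0.15 (adjusted p = 0.863). An antisense gene, DDIT4-AS1, shares 847 exon bases with DDIT4 and was not in the count table.

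SESN2 encodes sestrin 2, a leucine sensor that restrains mTORC1 through the GATOR complexes (chromosome 1, 28259527 to 28282491, plus strand). It was at 7.29, 10.8 and 9.39 CPM at 0 h, 8.57, 9.46 and 7.68 CPM at 5 h, and 12.7, 14.2 and 15.7 CPM at 12 h. The 0 h and 5 h libraries overlapped, and the 12 h libraries lay above both. The 5 h difference did not pass (log2 -0.08 ± 0.19, edgeR adjusted p = 0.737). At 12 h SESN2 was 1.57-fold higher than at 0 h (log2 0.65 ± 0.18, adjusted p = 0.00441) and 1.66-fold higher than at 5 h (log2 0.73 ± 0.18, adjusted p = 0.00362).

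ASNS encodes asparagine synthetase, which makes asparagine from aspartate and glutamine (chromosome 7, 97852118 to 97872542, minus strand). Its promoter match is the first sequence given above. ASNS was at 32.2, 42.5 and 43.7 CPM at 0 h, 75.2, 62.8 and 65.2 CPM at 5 h, and 95.4, 76.5 and 84.3 CPM at 12 h. The 3 groups did not overlap. It was 1.72-fold higher at 5 h (log2 0.78 ± 0.12, edgeR adjusted p = 2.17e-05) and 2.15-fold higher at 12 h (log2 1.11 ± 0.12, adjusted p = 2.29e-07). The step at 12 h against 5 h (log2 0.33 ± 0.12, adjusted p = 0.0351) was lost without 12 h replicate 1 (log2 0.24), 12 h replicate 3 (0.34), 5 h replicate 2 (0.28) or 5 h replicate 3 (0.30). An annotated transcript that is not in the count table, AC079781.5, shares 1985 exon bases with ASNS on the same strand.

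CHAC1, the other gene with the C/EBP-ATF core in its window, encodes an enzyme that degrades glutathione (chromosome 15, 40952962 to 40956519, plus strand). It was the least abundant member, with 35, 44 and 98 counts summed over the libraries of the 0 h, 5 h and 12 h groups. Its level was 0.639, 1.94 and 2.07 CPM at 0 h, 2.26, 2.97 and 1.10 CPM at 5 h, and 4.88, 5.78 and 3.70 CPM at 12 h. The 0 h and 5 h libraries overlapped, and the difference did not pass (log2 0.46 ± 0.44, edgeR adjusted p = 0.402). At 12 h CHAC1 was 3.10-fold higher than at 0 h (log2 1.63 ± 0.40, adjusted p = 0.0018). It was 2.25-fold higher than at 5 h (log2 1.17 ± 0.38, adjusted p = 0.0221), a call lost without 12 h replicate 2 (log2 0.98) or 5 h replicate 3 (0.87).

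PHGDH, PSAT1 and PSPH encode the successive enzymes that make serine from the glycolytic intermediate 3-phosphoglycerate, and all of them fell at 5 h. PHGDH, the dehydrogenase of the first step (chromosome 1, 119648411 to 119744226, plus strand), was at 67.1, 62.6 and 65.6 CPM at 0 h, 47.5, 52.0 and 54.8 CPM at 5 h, and 58.6, 76.7 and 73.1 CPM at 12 h. The 5 h libraries lay below all others, and the 12 h libraries spanned the 0 h range. The level at 5 h was 0.790 of that at 0 h (log2 -0.34 ± 0.11, edgeR adjusted p = 0.0118), a call lost without 5 h replicate 1 (log2 -0.29). It did not pass at 12 h against 0 h (log2 0.11, adjusted p = 0.417), and at 12 h it was 1.36-fold higher than at 5 h (log2 0.45 ± 0.11, adjusted p = 0.003).

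PSAT1, the aminotransferase of the middle step (chromosome 9, 78297143 to 78330093, plus strand), showed the same low point and a higher late level. It was at 127, 107 and 98.8 CPM at 0 h, 85.6, 85.0 and 78.2 CPM at 5 h, and 133, 129 and 146 CPM at 12 h. The groups did not overlap. The level at 5 h was 0.750 of that at 0 h (log2 -0.42 ± 0.10, edgeR adjusted p = 0.00169), and at 12 h it was 1.64-fold higher than at 5 h (log2 0.71 ± 0.10, adjusted p = 1.71e-05). At 12 h it was 1.23-fold higher than at 0 h (log2 0.30 ± 0.10, adjusted p = 0.015), a call lost without 0 h replicate 2 (log2 0.27), 0 h replicate 3 (0.22) or 12 h replicate 3 (0.24). Reads of the pseudogenes of PSAT1, ASNS and ATF4, which are not in the count table, may be counted with their parent genes.

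PSPH, the phosphatase of the last step (chromosome 7, 56011051 to 56051604, minus strand), was at 14.7, 11.1 and 10.5 CPM at 0 h, 9.17, 6.76 and 8.15 CPM at 5 h, and 12.4, 8.18 and 11.3 CPM at 12 h. The 5 h libraries lay below the 0 h libraries, and the 12 h libraries overlapped both. The level at 5 h was 0.662 of that at 0 h (log2 -0.60 ± 0.20, edgeR adjusted p = 0.0184). That call was lost without 0 h replicate 1 (log2 -0.44) or 5 h replicate 2 (-0.49). Neither 12 h against 0 h (log2 -0.23, adjusted p = 0.353) nor 12 h against 5 h (log2 0.37, adjusted p = 0.176) passed. The pseudogene PSPHP1, also on chromosome 7, is not in the count table, and its reads may be counted with PSPH.

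**Figure D2:**
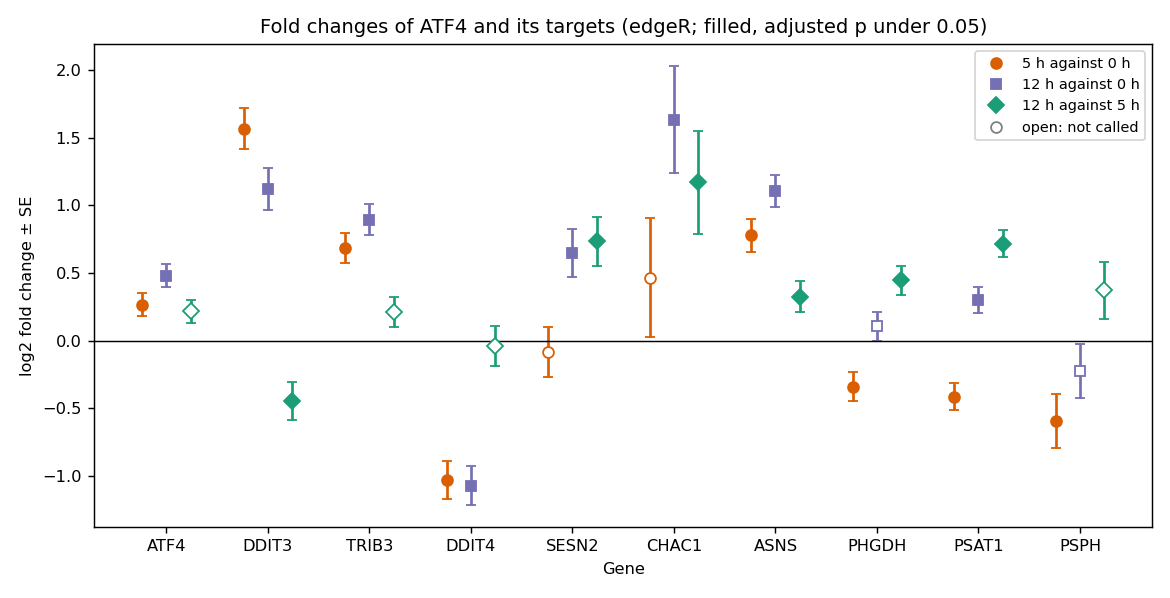
Log2 fold change ± SE (y axis) of the 10 genes (x axis) for 5 h against 0 h, 12 h against 0 h and 12 h against 5 h; filled symbols passed at an adjusted p under 0.05 and open symbols did not. DDIT3 is highest at 5 h (1.57), DDIT4 is near -1 at both times, and PHGDH, PSAT1 and PSPH are below 0 at 5 h.

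Per length of the principal transcript, ATF4 was the most abundant of the 10 mRNAs. Its level per length was 119.5 ± 3.38 CPM per kb at 0 h, 144 ± 5.17 at 5 h and 166.5 ± 13.9 at 12 h (SD, n = 3). PSAT1 came next at all times, at 50.6 ± 6.55, 37.9 ± 1.88 and 62.2 ± 4.24 CPM per kb at 0 h, 5 h and 12 h. DDIT4 was the third at 0 h (38.9 ± 1.28 CPM per kb), where it did not overlap its neighbours, and the seventh at 12 h (18.0 ± 4.77). ASNS was the fifth at 0 h (16.7 ± 2.67 CPM per kb) and the third at 5 h and 12 h (28.8 ± 2.78 and 36.2 ± 4.03).

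DDIT3 was the seventh at 0 h (9.59 ± 1.15 CPM per kb), where it overlapped TRIB3, and the fourth at 5 h (28.5 ± 3.50), where its libraries overlapped those of ASNS. At 5 h PHGDH (19.9 ± 1.43 CPM per kb), DDIT4 (19.1 ± 2.81) and TRIB3 (18.6 ± 0.540) overlapped and have no order among them. At 12 h the same held for each neighbouring pair in the order PHGDH, TRIB3, DDIT3 and DDIT4. PSPH, SESN2 and CHAC1 were lowest at all times, between 0.995 ± 0.509 CPM per kb (CHAC1 at 0 h) and 5.55 ± 1.05 (PSPH at 0 h), and their libraries overlapped in order at 12 h. With the merged length of all annotated exons, an alternative chosen after seeing the data, PHGDH was at 7.07 instead of 25.2 CPM per kb at 0 h, while ATF4 and PSAT1 stayed first and second. Other places depended on the length used. With merged exons at 5 h ASNS (15.2 CPM per kb) was below DDIT3 (20.5), and it overlapped DDIT4 (16.2), which had the higher mean. At 12 h SESN2 (4.11 CPM per kb) and PSPH (3.85) changed places while overlapping. DDIT4 (15.3 CPM per kb) then had a higher mean than DDIT3 (14.8), which it overlapped, and lay above PHGDH (7.54). Its place at 12 h therefore depended on the length used.

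**Figure D3:**
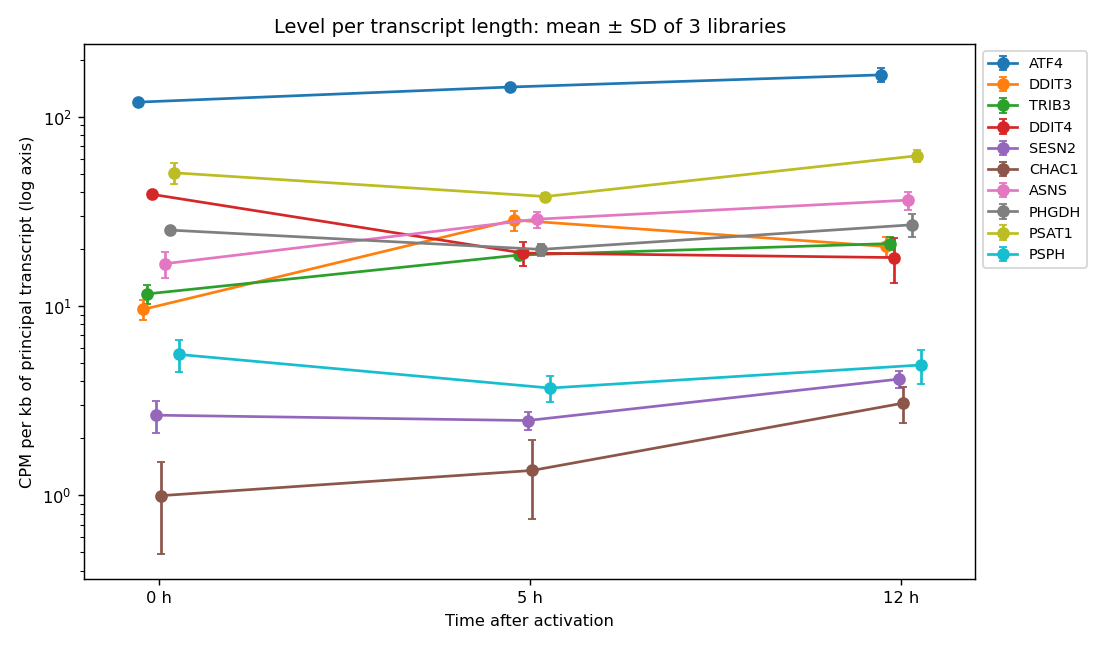
Level per transcript length (CPM per kb of the principal transcript, log axis) of the 10 genes at 0 h, 5 h and 12 h, as mean ± SD of 3 libraries, with times evenly spaced. ATF4 is highest at each time, DDIT4 lies above ASNS at 0 h and below it at 5 h and 12 h on this length, which does not hold at 5 h with merged exons, and CHAC1 is lowest throughout.

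The kinases that start the response were measured as mRNA in a list of eIF2 kinases and their regulators, eIF2, eIF2B and phosphatase subunits. The list also holds EIF2A, EIF2D, MCTS1 and DENR, which are not subunits of eIF2 or eIF2B. Of its 22 tested genes, 10 were higher and 1 lower at 5 h, and 11 were higher and 3 lower at 12 h against 0 h. The 11 called of 22 at 5 h are near the background of 49.7% of all genes tested, but that share joins both directions. At 12 h 63.6% were called, against 51.1% of all genes. Among all genes 24.9% were higher and 24.8% lower at 5 h, and 26.3% and 24.8% at 12 h. The 3 lower at 12 h were EIF2AK4, EIF2S1 and DNAJC3, and they became 5 without 0 h replicate 3. EIF2AK3, which encodes the endoplasmic reticulum kinase PERK, was at 46.9, 51.7 and 55.4 CPM at 0 h, 122, 124 and 119.9 CPM at 5 h, and 88.1, 88.3 and 77.6 CPM at 12 h. The groups did not overlap, and EIF2AK3 rose at 5 h (log2 1.25 ± 0.09, edgeR adjusted p = 6.87e-10) and at 12 h (log2 0.72, adjusted p = 2.87e-06). EIF2AK4, which encodes the amino-acid sensing kinase GCN2, fell at 5 h (53.0 against 74.0 CPM on average, log2 -0.48, adjusted p = 3.99e-04) and at 12 h (59.7 against 74.0 CPM, log2 -0.30, adjusted p = 0.0136). Its 12 h call was lost without 0 h replicate 2 (log2 -0.23).

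EIF2AK1 (HRI) and EIF2AK2 (PKR) did not pass at either time, with log2 values of -0.08 and 0.05 at 5 h and -0.18 and -0.16 at 12 h. Without 0 h replicate 3 both passed at 12 h (log2 -0.24 for EIF2AK1 and -0.29 for EIF2AK2), and EIF2AK1 also with upper-quartile normalization (-0.24). PPP1R15A encodes GADD34, the stress-induced subunit that brings a phosphatase to eIF2. It was at 22.0, 13.9 and 16.8 CPM at 0 h, 37.1, 42.7 and 52.3 CPM at 5 h, and 26.6, 47.5 and 43.4 CPM at 12 h. Every activated library exceeded every 0 h library (log2 1.32 at 5 h, edgeR adjusted p = 6.46e-06, and 1.18 at 12 h, adjusted p = 2.57e-05). EIF2S1, the eIF2 subunit that the kinases phosphorylate, did not pass at 5 h (log2 0.21, adjusted p = 0.0632; it passed without 0 h replicate 1, log2 0.27, and in the fit of the 2 groups alone, 0.21). At 12 h it was lower than at 0 h (120.9 against 159 CPM, log2 -0.40, adjusted p = 0.00138).

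Among 33 tested genes of a list of other ATF4 and CHOP targets, 13 were higher and 7 lower at 5 h, with a median log2 fold change of 0.02, and 15 were higher and 3 lower at 12 h, with a median of 0.37. The share called was 60.6% at 5 h and 54.5% at 12 h (all genes 49.7% and 51.1%). The 3 were SLC1A4, ATF5 and SLC1A5, and they became 5 without 12 h replicate 1 and with upper-quartile normalization. SLC7A5, the light chain of a large neutral amino-acid transporter, was at 544, 589 and 672 CPM at 0 h, 2881, 3467 and 3356 CPM at 5 h, and 1201, 1252 and 1004 CPM at 12 h. Its groups did not overlap, with 5 h highest (log2 2.43 ± 0.11 at 5 h and 0.94 at 12 h against 0 h). KLHL24, a ubiquitin-ligase adaptor, was higher at 5 h (log2 0.51) and more so at 12 h (129.6 against 37.4 CPM, log2 1.79 ± 0.11, edgeR adjusted p = 2.19e-11). SLC1A4, a transporter of serine and other neutral amino acids, fell to 36.9 CPM at 5 h and 38.2 CPM at 12 h, against 131 CPM at 0 h (log2 -1.83 and -1.78). SHMT2 and MTHFD2, mitochondrial enzymes that draw one-carbon units from serine, rose at 5 h (log2 0.34 and 0.31) and 12 h (0.47 and 0.33). The 5 h call of MTHFD2 was lost without 0 h replicate 3 (log2 0.25).

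Transcription factors on the same list did not move together. ATF3, a stress-induced repressor, was higher at 5 h (11.8 against 7.65 CPM, log2 0.62, edgeR adjusted p = 0.00725), a call lost without 0 h replicate 2 (log2 0.47), and it did not pass at 12 h (log2 0.37, adjusted p = 0.102). CEBPB, a bZIP partner of ATF4, fell at 5 h (8.93 against 14.2 CPM, log2 -0.68, adjusted p = 0.00238). It did not pass at 12 h against 0 h (log2 0.32, adjusted p = 0.0958; it passed without 12 h replicate 1, log2 0.39). CEBPG, another partner, did not pass at 5 h (log2 -0.15) or 12 h (0.19) against 0 h. At 12 h against 5 h both were higher, CEBPB by a log2 of 0.99 (adjusted p = 1.32e-04) and CEBPG by 0.34 (adjusted p = 0.0165). The CEBPG call was lost without 5 h replicate 1 (log2 0.32) or 5 h replicate 2 (0.28). ATF5, a close relative of ATF4, fell at both times, to 14.8 CPM at 5 h and 11.9 CPM at 12 h, against 23.6 CPM at 0 h (log2 -0.67 and -0.98). EIF4EBP1, a translation repressor downstream of mTORC1, was at 7.79, 6.83 and 7.80 CPM at 0 h, 5 h and 12 h, and no difference passed.

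All 12 aminoacyl-tRNA synthetase genes on a list of cytosolic enzymes known as ATF4 targets were tested. At 5 h 9 were higher and 0 lower, with a median log2 fold change of 0.50, and at 12 h 10 were higher and 0 lower, with a median of 0.45. That is 75.0% called at 5 h and 83.3% at 12 h (all genes 49.7% and 51.1%). At an unadjusted p under 0.05 and in DESeq2 the number lower was also 0 at both times. WARS1, for tryptophan, had the largest rise (120.0 CPM at 5 h and 123 CPM at 12 h, against 59.1 CPM at 0 h, log2 1.02 and 1.06). YARS1, for tyrosine, was at 165 CPM at 5 h and 201 CPM at 12 h, against 109 CPM at 0 h (log2 0.60 and 0.89). The number higher at an unadjusted p under 0.05 was 10 at both times. The list did not keep rising from 5 h to 12 h. At 12 h against 5 h, 3 were higher (AARS1, CARS1 and YARS1) and 3 lower (GARS1, NARS1 and TARS1), with a median log2 fold change of 0.016. In that comparison the YARS1 call was lost without 12 h replicate 3 (log2 0.24) or 5 h replicate 1 (0.26).

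Genes on a list of serine use, folate one-carbon metabolism and serine transport went both ways. Of 19 tested, 5 were higher and 7 lower at 5 h (median log2 -0.15), and 6 were higher and 9 lower at 12 h (median -0.39). These are 63.2% called at 5 h and 78.9% at 12 h (all genes 49.7% and 51.1%). The 5 were GLDC, MTHFD1L, SHMT2, MTHFD2 and SFXN1, a mitochondrial serine carrier. GLDC, the glycine decarboxylase of the mitochondrial glycine cleavage system, rose to 76.9 CPM at 5 h and 58.4 CPM at 12 h, against 19.7 CPM at 0 h (log2 1.96 and 1.57). MTHFD1L, a mitochondrial formate-producing enzyme, was also higher (log2 0.75 and 0.70). SLC1A4, described above, was among the lower genes at both times (log2 -1.83 and -1.78). SHMT1 and TYMS, picked after their values were seen, had lower means after activation. SHMT1 averaged 55.0 CPM at 0 h, 20.8 CPM at 5 h and 23.8 CPM at 12 h. TYMS averaged 539 CPM at 0 h, 373 CPM at 5 h and 256 CPM at 12 h.

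Glutathione and cysteine genes, the pathway of CHAC1, had 3 higher and 2 lower of 10 at 5 h, and 2 higher and 2 lower at 12 h. The 5 called of 10 at 5 h and 40.0% at 12 h were near or below the share of all genes tested (49.7% and 51.1%). At 5 h the higher ones were SLC7A11, SLC3A2 and GCLC and the lower ones CHAC2 and GGCT, and at 12 h they were SLC3A2 and GSS, and CHAC2 and GSR. The 2 lower at 5 h became 1 without 0 h replicate 1 or 2, without 5 h replicate 2 or 3, in DESeq2 and in limma. SLC3A2, the heavy chain shared by SLC7A5 and SLC7A11, rose to 402 CPM at 5 h and 581 CPM at 12 h, against 204 CPM at 0 h (log2 0.98 and 1.51). SLC7A11, the cystine importer, was higher at 5 h (17.8 against 10.5 CPM, log2 0.75, edgeR adjusted p = 7.76e-04). At 12 h it did not pass (log2 0.38, adjusted p = 0.0706), except without 0 h replicate 1 (log2 0.51). CHAC2, the constitutive relative of CHAC1, fell at both times (5.31 CPM at 5 h and 5.60 CPM at 12 h, against 11.8 CPM at 0 h, log2 -1.15 and -1.04). GSR, glutathione reductase, did not pass at 5 h (log2 0.11) and was lower at 12 h than at 0 h (log2 -0.37) and than at 5 h (log2 -0.48, adjusted p = 4.21e-04).

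The list of mTORC1 brakes and amino-acid sensors, which sets DDIT4 and SESN2 beside their relatives, had 4 higher and 4 lower of 16 tested genes at 5 h, the higher being MIOS, CASTOR2, NPRL3 and WDR59 and the lower SESN3, TSC2, AKT1S1 and EIF4EBP2. Each 4 became 2 when 5 h replicate 1 was left out, and so did the higher count without 0 h replicate 3 or 5 h replicate 3 and with upper-quartile normalization, and the lower count without 0 h replicate 1. At 12 h 6 were higher and 2, TSC2 and EIF4EBP2, lower. At both times 8 of 16 were called, near the 49.7% and 51.1% of all genes tested. Some genes on the list, among them MIOS, EIF4EBP1 and EIF4EBP2, are not themselves brakes on mTORC1, so the counts do not measure braking. SESN1 and DDIT4L, relatives picked after their values were seen, did not show such changes. SESN1 averaged 12.4 CPM at 0 h, 12.4 CPM at 5 h and 12.0 CPM at 12 h. DDIT4L had 2 counts in all at 0 h and 0 at 5 h and 12 h, too few to compare. SESN3, a sestrin like SESN2, was at 13.8 ± 2.45 CPM at 0 h, 10.2 ± 0.713 CPM at 5 h and 23.7 ± 3.71 CPM at 12 h (SD, n = 3). It was higher at 12 h than at 0 h (log2 0.76, edgeR adjusted p = 4.79e-04) and than at 5 h (log2 1.19, adjusted p = 1.76e-05). Its fall at 5 h (log2 -0.43, adjusted p = 0.0434) was lost without any one of 0 h replicate 1 (log2 -0.30), 0 h replicate 3 (-0.46), 5 h replicate 1 (-0.49), 5 h replicate 2 (-0.43) or 5 h replicate 3 (-0.39), in DESeq2 (-0.43) and in limma (-0.41). MIOS, a subunit of the GATOR2 complex that sestrins bind, rose at both times (log2 1.01 and 0.84). EIF4EBP2, a translation repressor, fell (log2 -0.38 and -0.62), and AKT1S1 (PRAS40) fell at 5 h (log2 -0.45; lost without 0 h replicate 1, log2 -0.42).

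A list of tribbles genes, ATF4 partners and ATF4 turnover genes had 8 higher and 3 lower of 16 tested at 5 h. At 12 h it had 3 higher and 4 lower. The turnover genes include BTRC, FBXW11, SIAH1 and SIAH2, so the counts are not those of tribbles genes and partners alone. The share called was 68.8% at 5 h and 43.8% at 12 h (all genes 49.7% and 51.1%). The lower ones were TRIB2, CEBPB and ATF5 at 5 h and TRIB2, CEBPA, ATF5 and RPS6KA3 at 12 h, where TRIB1, NFE2L2 and SIAH2 were higher. The 4 became 2 without 0 h replicate 1 or 12 h replicate 2. TRIB1, a pseudokinase related to TRIB3, was at 1.41, 1.35 and 0.976 CPM at 0 h, 51.7, 38.2 and 43.1 CPM at 5 h, and 14.2, 13.7 and 15.3 CPM at 12 h. It rose by a log2 of 5.15 ± 0.20 at 5 h (edgeR adjusted p = 1.44e-14) and 3.52 ± 0.23 at 12 h, where TRIB3 had 0.68 and 0.89. TRIB2 went the other way, to 28.9 CPM at 5 h and 26.8 CPM at 12 h, against 57.5 CPM at 0 h (log2 -0.99 and -1.10). NFE2L2 encodes NRF2, the antioxidant factor that PERK can also activate. It was higher at 5 h (172 against 60.9 CPM, log2 1.496) and at 12 h (91.5 against 60.9 CPM, log2 0.58). CEBPA, at 1.04 CPM at 12 h against 2.35 CPM at 0 h, passed at 12 h (log2 -1.13, adjusted p = 0.0385) but not with the replicate block (log2 -1.07, adjusted p = 0.0667). Its call was also lost without any one of 0 h replicate 1 (log2 -0.76), 0 h replicate 3 (-1.07), 12 h replicate 1 (-1.001), 12 h replicate 2 (-1.24) or 12 h replicate 3 (-1.19), in DESeq2 (-1.14) and in limma (-0.96).

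A list for the IRE1 and ATF6 arms of the unfolded protein response, which run beside PERK, holds their targets and the sensor genes ERN1 (IRE1), ATF6 and ATF6B. It had 10 higher and 4 lower of 20 at 5 h (median log2 0.28), and 7 higher and 4 lower at 12 h (median -0.08). The share called was 70.0% at 5 h and 55.0% at 12 h (all genes 49.7% and 51.1%). The 4 lower were XBP1, CALR, SDF2L1 and the sensor gene ATF6B at 5 h, and XBP1, CALR, SDF2L1 and MANF at 12 h. The 4 at 5 h became 2 without 5 h replicate 1. HSPA5, the chaperone BiP, was high at 5 h (1933 CPM, against 611 CPM at 0 h, log2 1.66). At 12 h (557 CPM) it did not pass against 0 h (log2 -0.13, edgeR adjusted p = 0.313), except without 12 h replicate 1 (log2 -0.26). HSP90B1, the chaperone GRP94, rose at both times (2745 CPM at 5 h and 1635 CPM at 12 h, against 760.5 CPM at 0 h). XBP1, the factor spliced by IRE1, fell to 178 CPM at 5 h and 116 CPM at 12 h, against 227.5 CPM at 0 h (log2 -0.35 and -0.97). Its 5 h call was lost without 5 h replicate 1 (log2 -0.27). CALR, the chaperone calreticulin, fell at both times (log2 -0.47 and -0.81). At 12 h against 5 h, 1 gene of this list was higher and 8 were lower. In that comparison the numbers higher and lower were 13 and 3 for the other ATF4 and CHOP targets. They were 1 and 6 for the eIF2 list, 2 and 6 for serine use, and 2 and 2 for glutathione. The mTORC1 list had 3 and 0, and the tribbles list 2 and 7. Among all genes tested 18.1% were higher and 18.0% lower.

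**Figure D4:**
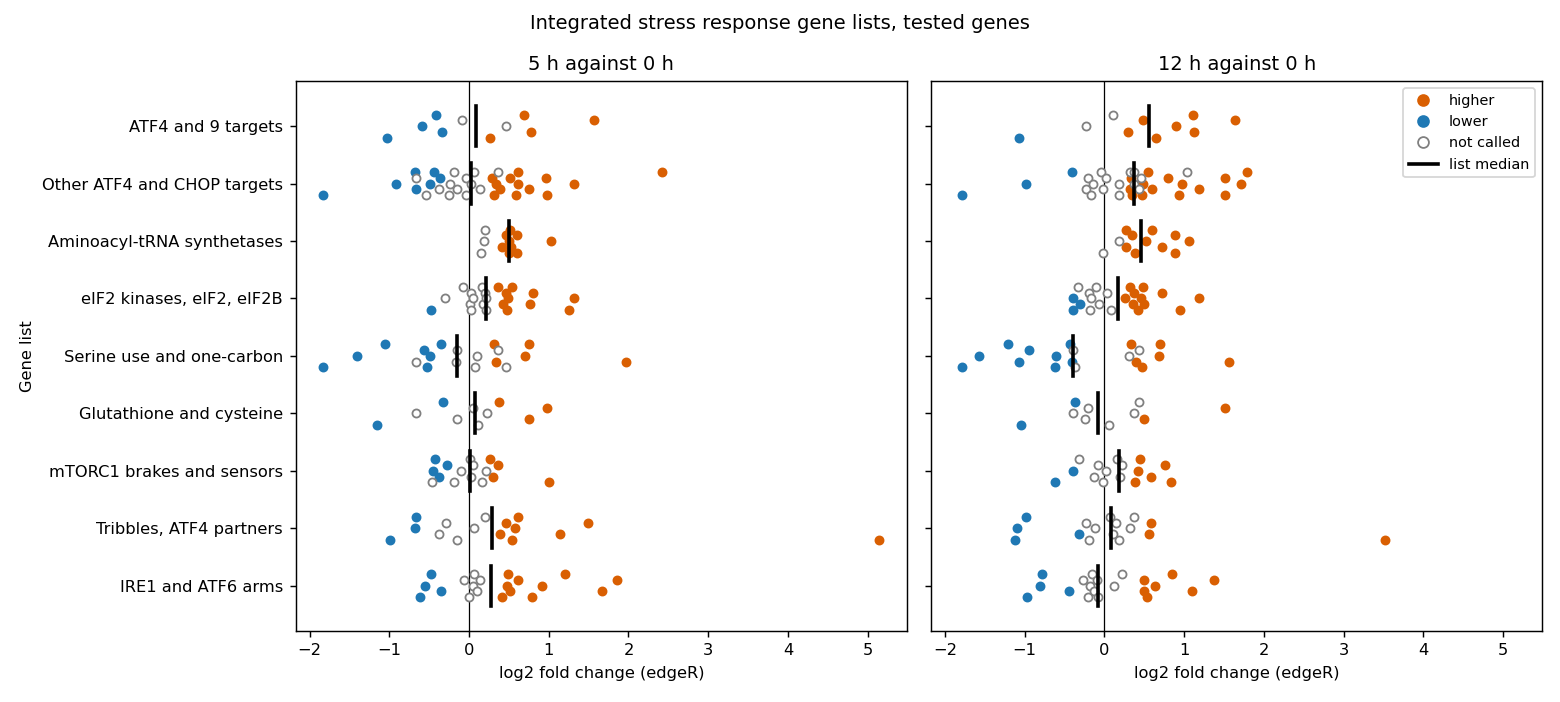
Log2 fold change (x axis) of every tested gene of 9 lists (rows) at 5 h against 0 h (left panel) and 12 h against 0 h (right panel); orange points were higher, blue lower, open points not called, and black bars are list medians. The synthetases have 9 and 10 higher genes and 0 lower, while the 10 members are split 4 and 4 at 5 h and 7 and 1 at 12 h.

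The genes with a time course most like that of ATF4 were found by the root mean square difference, over the 9 libraries, between log2 CPM values centred on each gene's mean. The 5 nearest of the tested genes outside the members were RPL10 (0.0336), RPS4X (0.0442), GPHN (0.0473), ABCD4 (0.0508) and RPS15A (0.0509). RPL10, RPS4X and RPS15A encode ribosomal proteins, GPHN a scaffold at inhibitory synapses that also makes molybdenum cofactor, and ABCD4 a transporter tied to vitamin B12. Among the other members the same distance from ATF4 ran from 0.216 for TRIB3 to 0.72 for DDIT4. The nearest genes were picked as the smallest distances of all tested genes and the members were not, so the 2 sets of distances are not comparable. The distance also grows with the size of a change, not only its shape. Over the 9 libraries ATF4 spanned a log2 CPM range of 0.62 and ASNS 1.56. The nearest to TRIB3 were CLIP3 (0.0711), the synthetase gene YARS1 (0.0725) and TNIP1 (0.0798). The nearest to ASNS were VPS13D (0.0858), DUSP18 (0.0863) and F11R (0.103), and the nearest to DDIT4 were SAMD1 (0.105), HOXA7 (0.112) and SUMF1 (0.118). These distances are descriptions, since the 9 libraries of 3 groups give few independent points.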

How the data were processed

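The authors deposited whole-number counts per Ensembl gene for 9 libraries, and a table of log2 expression values. Per the labels' protocols, RNA came from a Direct-zol kit and libraries from a RealSeq kit. The submitters' processing notes name cutadapt, RSEM, DESeq2 and GRCh38.p13; the sources used here give no roles, versions, annotation or strand setting. RSEM estimates counts, so the whole numbers may be rounded. Each deposited log2 value equals log2 of a count over 1 library factor, plus 1, within 5.15e-14.

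From the counts, edgeR 4.0.16 (R 4.3.3) fitted all 9 libraries with 1 coefficient per group, TMM and filterByExpr, with Benjamini-Hochberg adjustment over 12036 genes. Alternatives used DESeq2 1.42.0, limma 3.58.1 on the log2 values, other normalizations, filters and sample sets. Symbols came from a table that matched 19543 gene IDs, and coordinates (1-based) and lengths from GENCODE 29. The principal transcript is the longest with the best APPRIS rank. No interval for counting error was computed.

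The members and the 8 other lists (144 genes, 143 in the table, 132 tested) were chosen with earlier results of these data known. The lists overlap, and shared genes, such as SLC7A11, SLC3A2, ATF5, CEBPB and PPP1R15A, are counted in each list that holds them, so the list counts are not independent. By rule, each list names the 2 largest rises and falls called against 0 h, plus a set of named factors; genes named beside a count of 5 or fewer were chosen after their values were seen. A gene that the rule names is not reported here. Neighbours of a time course were taken by distance. The labels call replicates biological without saying that cultures were separate, so p-values measure only spread between libraries, possibly technical. No replicate pair agreed within sampling noise (chi-square over degrees of freedom 2.87 to 8.92).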

Additional observations from a re-analysis of the deposited data

How the results depend on the processing

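The 17 alternatives left every call of a named gene without a reversal. Among 30 log2 fold changes of the 10 members, 510 alternative values kept their side of the threshold in 489 cases, lost it in 17 and gained it in 4; 3 values that passed in neither fit changed sign. Leaving out 1 library, the members higher numbered 3 to 4 at 5 h, 6 to 7 at 12 h against 0 h and 3 to 6 at 12 h against 5 h, and those lower 3 to 4, 1 to 1 and 0 to 1. Under the other 8 alternatives the numbers were 3 to 4, 7 to 7 and 5 to 6 higher, and 4 to 4, 1 to 1 and 1 to 1 lower. For 50 other named genes, 2549 alternative values gave 60 losses and 24 gains, and of 816 list counts 43 moved by over 1.5 times. Upper-quartile normalization shifted the median log2 fold change of all genes by -0.0859 at 5 h and -0.0657 at 12 h against 0 h, and the cause of the calls it changed was not tested. With the replicate block, 4 members were higher at 5 h and 7 at 12 h against 0 h, as without it, and among named genes only the CEBPA call at 12 h was lost. Same-numbered libraries deviated together with correlations of -0.143 to 0.163, so the numbers were not taken as pairs. CHAC1 had 5 to 53 counts per library and CEBPA 3 to 27, so their values carry wide counting error.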
